A study of Oryza sativa with 12 samples.

Results

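The tonoplast intrinsic protein (TIP) genes of rice encode the aquaporins of the vacuolar membrane, and 7 of them were followed here by locus ID: TIP1-1 (LOC_Os03g05290), TIP1-2 (LOC_Os01g74450), TIP2-1 (LOC_Os02g44080), TIP2-2 (LOC_Os06g22960), TIP4-1 (LOC_Os05g14240), TIP4-2 (LOC_Os01g13130) and TIP4-3 (LOC_Os01g13120). They are 7 of the 57265 features in the count table. The rule that picks them uses no measured value, but they were chosen with earlier results of these data known. The study measured RNA in bulk root tissue of rice (Oryza sativa, cultivar XS134) grown for 7 days in a greenhouse, and asked how roots respond to an added signal called PEP1. The 4 groups were wild type roots given 1 µM PEP1, wild type roots given ethanol, roots of RNAi line 1 against OsPEP1 given 1 µM PEP1, and roots of the same RNAi line given ethanol, with 3 libraries each. The RNAi genotype is represented by this 1 line, and the labels name neither the promoter of its construct, nor the locus it targets, nor the duration of the treatment. The level of the targeted gene was therefore not checked. The labels do not state that replicate libraries stem from separate plants or cultures. The p-values therefore weigh group differences against the spread between these libraries, which may be technical.

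Aquaporins are membrane channels of the major intrinsic protein family that let water, and in some members small neutral solutes, cross a membrane. TIP proteins sit in the tonoplast, the membrane around the large central vacuole, where they allow fast water exchange between vacuole and cytosol during cell expansion and osmotic adjustment. In Arabidopsis, TIP1 and TIP2 proteins are the main TIPs of vegetative tissue, some of them also pass urea, hydrogen peroxide or ammonia, and TIP3 proteins belong to seeds and TIP5 to pollen.

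Total counts per library ranged from 15368736 to 21317008, and 25602 features passed the filter on low counts. Of the 7 TIP genes, 5 passed it. TIP4-2 and TIP4-3 did not, and are described by their counts. Levels are in CPM, that is, counts relative to the TMM-scaled size of the library, so they are comparable between libraries for 1 gene, but not between genes, whose lengths were not used. In earlier results of these data, 3 libraries stood apart from their groups: wild type ethanol replicate 1, RNAi PEP1 replicate 2 and RNAi ethanol replicate 2. Values without them are given below. The labelled tissue was checked with 4 root loci, 2 of which passed the check of their symbols, all detected in every group, whose summed level lay between 1102 and 5228 CPM. The 3 loci of green shoot tissue, 2 of them with checked symbols, were detected in every group too, with sums of 79.7 to 185 CPM in wild type PEP1, 23.3 to 281 CPM in wild type ethanol, 55.3 to 744 CPM in RNAi PEP1 and 10.3 to 65.3 CPM in RNAi ethanol.

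TIP1-2 and TIP2-1 rose with PEP1 in both genotypes. TIP1-2 was 4.97-fold higher in wild type roots and 6.63-fold higher in RNAi roots, and TIP2-1 was 2.07-fold and 1.86-fold higher, as ratios of mean CPM. None of the 5 tested TIP genes fell with PEP1, and TIP1-1, TIP2-2 and TIP4-1 did not pass the test in either genotype. So 2 of 5 tested TIP genes were called in the wild type, where 5.19% of all tested features were called, 2.54% higher and 2.66% lower. The same 2 genes were called in the RNAi line, where 15.4% of all tested features were called, 8.68% higher and 6.68% lower. The median log2 change of the 5 genes was 0.37 in the wild type and 0.58 in the RNAi line, beside -0.00 and -0.01 for all tested features. In bulk root RNA, more cells of a type and more RNA per cell cannot be told apart.

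**Figure D1:**
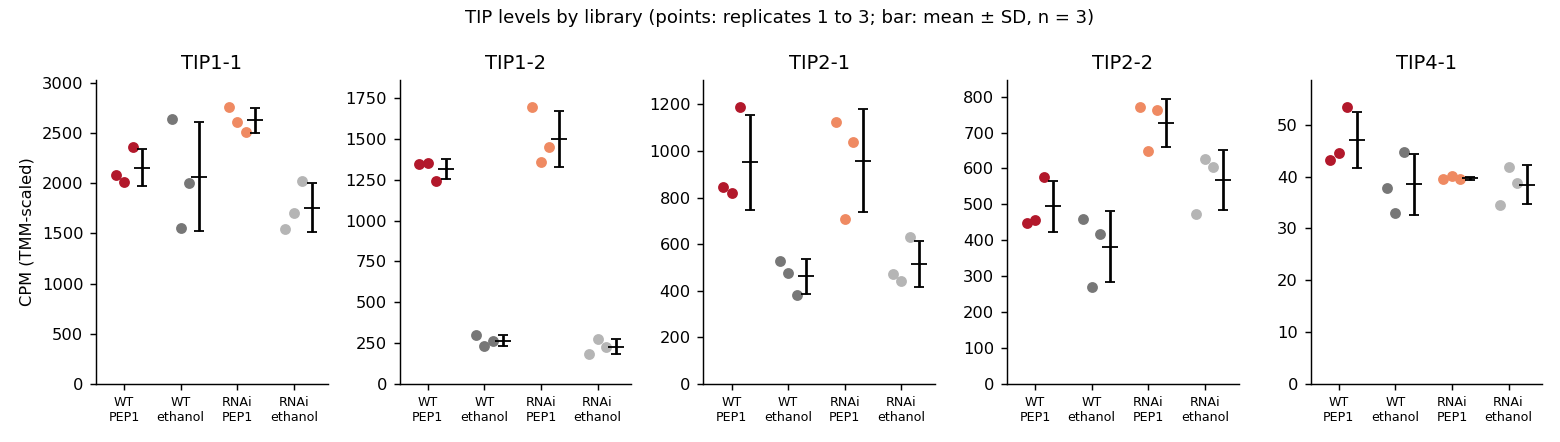
Level of the 5 tested TIP genes in each library. Each panel is 1 gene, the y axis is CPM on TMM-scaled library sizes, points are replicates 1 to 3 from left to right, and bars are the mean ± SD (n = 3). TIP1-2 lies between 1245 and 1695 CPM in the 6 PEP1 libraries and between 181 and 302 CPM in the 6 ethanol libraries.

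TIP1-2 encodes a vacuolar membrane channel of the TIP1 subfamily and had the largest PEP1 change of the tested TIP genes. It had 1349, 1354 and 1245 CPM in wild type PEP1 roots, against 302, 232 and 259.7 CPM in wild type ethanol roots (replicates 1 to 3). RNAi roots had 1695, 1361 and 1449 CPM with PEP1, against 181, 275 and 223 CPM with ethanol. Every PEP1 library was far above every ethanol library in both genotypes, and 10.1% of all tested features in the wild type and 21.7% in the RNAi line were higher with PEP1 without overlap. The means were 1316 ± 61.8 CPM with PEP1 and 265 ± 34.9 CPM with ethanol in the wild type, and 1502 ± 173 CPM with PEP1 and 226 ± 47.1 CPM with ethanol in the RNAi line (SD, n = 3 each). The log2 change was 2.31 ± 0.19 (SE, 95% interval 1.90 to 2.73) in the wild type, with an adjusted p of 7.81e-05 (edgeR quasi-likelihood, p adjusted by Benjamini-Hochberg across the 25602 features). For the RNAi line it was 2.73 ± 0.19 (SE, 95% interval 2.31 to 3.15; edgeR adjusted p = 4.34e-05). Ranked by p among all tested features, TIP1-2 stood at place 36 in the wild type and at place 11 in the RNAi line. Without the 3 libraries that stood apart the changes were 2.41 in the wild type and 2.96 in the RNAi line. These were its highest ethanol library in each genotype and its lowest RNAi PEP1 library, so leaving them out raises both changes. The call held in each of the 22 alternatives tried in each genotype.

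TIP1-1 encodes the other TIP1 channel and gave the most counts of the TIP genes in all 12 libraries. It had 2081, 2018 and 2367 CPM in wild type PEP1 roots, against 2639, 1559 and 1999.8 CPM in wild type ethanol roots. The wild type groups overlapped widely, with both the highest and the lowest value in ethanol libraries. RNAi roots had 2759, 2612 and 2517 CPM with PEP1, against 1540.1, 1707 and 2027 CPM with ethanol. All RNAi PEP1 libraries were above all RNAi ethanol libraries, as were those of TIP1-2 and of 21.7% of all tested features. The means were 2155 ± 186 CPM with PEP1 and 2066 ± 543 CPM with ethanol in the wild type, and 2629 ± 122 CPM with PEP1 and 1758 ± 247 CPM with ethanol in the RNAi line (SD, n = 3 each). The log2 change was 0.06 (95% interval -0.41 to 0.53; edgeR adjusted p = 0.919) in the wild type. In the RNAi line it was 0.58 (95% interval 0.11 to 1.05), and it missed the threshold with an edgeR adjusted p of 0.0881. DESeq2 placed the RNAi change past the threshold (adjusted p = 0.0168), and so did edgeR without wild type ethanol replicate 1 (adjusted p = 0.0429) or wild type ethanol replicate 2 (adjusted p = 0.0453). Over the 22 alternatives the adjusted p of that change ranged from 0.0168 to 0.223.

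TIP2-1 belongs to the TIP2 subfamily, whose Arabidopsis members also conduct ammonia. It had 847, 821 and 1188 CPM in wild type PEP1 roots, against 528, 475 and 379.8 CPM in wild type ethanol roots. Roots of the RNAi line had 1127, 707 and 1039.8 CPM with PEP1, against 472, 443 and 629 CPM with ethanol. The groups did not overlap in either genotype, and in the RNAi line the lowest PEP1 library, replicate 2, was close to the highest ethanol library, replicate 3. Such a rise without overlap was seen in 10.1% of all tested features in the wild type and 21.7% in the RNAi line. The log2 change was 1.05 ± 0.24 (SE, 95% interval 0.52 to 1.57; edgeR adjusted p = 0.0299) in the wild type and 0.90 ± 0.24 (SE, 95% interval 0.38 to 1.42; edgeR adjusted p = 0.0302) in the RNAi line. Means were 952 ± 204 CPM with PEP1 and 461 ± 75.1 CPM with ethanol in the wild type, and 958 ± 222 CPM with PEP1 and 514 ± 100.04 CPM with ethanol in the RNAi line (SD, n = 3 each).

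Both TIP2-1 calls were lost in some of the alternatives. The wild type call was lost in edgeR without wild type PEP1 replicate 1 (log2 change 1.12, adjusted p = 0.0678) or replicate 3 (0.85, adjusted p = 0.126). It was also lost without wild type ethanol replicate 2 (1.07, adjusted p = 0.0767) or replicate 3 (0.93, adjusted p = 0.113), and when only the libraries of the wild type were fitted (1.05, adjusted p = 0.0860). Calls over all features fell in these fits too, from 1330 with all libraries to 571, 593, 807, 731 and 535 in that order. The RNAi call was lost in edgeR without RNAi PEP1 replicate 1 (0.77, adjusted p = 0.108) or replicate 3 (0.83, adjusted p = 0.0593), and without RNAi ethanol replicate 1 (0.84, adjusted p = 0.0944) or replicate 2 (0.80, adjusted p = 0.0881). Over all features these fits called 1475, 4064, 1812 and 2311 in that order, against 3934 with all libraries. The RNAi call held without RNAi PEP1 replicate 2 and without RNAi ethanol replicate 3, where 1703 and 1293 features were called. Losing the call thus did not follow the number of features called in the RNAi line. TIP2-1 had a higher mean with PEP1 in every alternative in both genotypes, with adjusted p from 0.000491 to 0.126 in the wild type and from 0.00232 to 0.108 in the RNAi line. Without the 3 libraries that stood apart, both calls held, at log2 changes of 1.14 (edgeR adjusted p = 0.0212) in the wild type and 0.98 (edgeR adjusted p = 0.0454) in the RNAi line. For TIP2-1 these libraries were the highest of wild type ethanol and the lowest of both RNAi groups. Leaving out the wild type library raises the wild type change, while the RNAi libraries act in opposite directions.

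TIP2-2 is the second TIP2 gene measured, and none of its differences passed the test. It had 770.4, 649 and 762 CPM in RNAi PEP1 roots and 473, 626 and 604 CPM in RNAi ethanol roots. In the wild type it had 448, 457 and 577 CPM with PEP1 and 459, 271 and 417 CPM with ethanol. The RNAi libraries were above the wild type libraries of the same treatment without overlap, whereas the wild type PEP1 and ethanol libraries overlapped. The RNAi PEP1 libraries were above the RNAi ethanol libraries, by a small margin that closed when counts were scaled by library totals. In the RNAi line 21.7% of all tested features were higher with PEP1 without overlap. The PEP1 change was 0.37 (95% interval -0.09 to 0.83; edgeR adjusted p = 0.369) in the wild type and 0.36 (95% interval -0.10 to 0.82; edgeR adjusted p = 0.253) in the RNAi line, on the log2 scale.

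TIP4-1 encodes a TIP4 channel and had the narrowest range of group means among the 5 tested genes. It had 43.2, 44.6 and 53.4 CPM in wild type PEP1 roots, against 37.8, 33.0 and 44.8 CPM in wild type ethanol roots. In the RNAi line it had 39.5, 40.0 and 39.6 CPM with PEP1, against 34.4, 41.9 and 38.8 CPM with ethanol. The groups overlapped in both genotypes. The log2 change was 0.29 (95% interval -0.01 to 0.59; edgeR adjusted p = 0.273) in the wild type and 0.05 (95% interval -0.25 to 0.35; edgeR adjusted p = 0.830) in the RNAi line, so both intervals end below 1.

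TIP4-2 and TIP4-3 have neighbouring locus numbers on chromosome 1 and were barely detected. TIP4-2 had 2, 1 and 1 counts in wild type PEP1 roots, against 1, 6 and 4 counts in wild type ethanol roots. In the RNAi line it had 2, 5 and 2 counts with PEP1, against 16, 25 and 4 counts with ethanol. The RNAi ethanol libraries held most of its counts, 45 in all against 9 in RNAi PEP1, but their lowest library overlapped the RNAi PEP1 range. In a fit of all features with no filter on low counts, the PEP1 change of TIP4-2 in the RNAi line was -2.41 on the log2 scale and missed the threshold (edgeR adjusted p = 0.0705). The gene passed the default filter in 10 of the 12 fits that left out 1 library, and failed it without RNAi ethanol replicate 1 or 2, the libraries in which it was high. Its edgeR adjusted p in those 10 fits ranged from 0.0330 to 0.154 for the RNAi line and was below 0.05 in 3 of them, namely without wild type ethanol replicate 1, wild type ethanol replicate 2 or RNAi ethanol replicate 3. Because it passed the filter through the group in which it was high, these values are not counted as a change. TIP4-3 had 1, 2 and 1 counts in wild type PEP1, 1, 1 and 1 in wild type ethanol, 1, 0 and 0 in RNAi PEP1, and 4, 2 and 1 in RNAi ethanol. These counts are at or near 3 counts per library, the limit that a count of 0 allows, equal to 0.141 to 0.195 CPM across the libraries, so no fold is given. The labels do not say how reads shared by similar neighbouring copies were counted, which makes the division of counts between TIP4-2 and TIP4-3 uncertain.

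The second question of the design was whether the RNAi line differed from the wild type. None of the 5 tested TIP genes passed edgeR's test under ethanol, where 3.79% of all tested features were called, nor under PEP1, where 2.65% were called. DESeq2 and limma-voom also called 0 of 5 in each. At an unadjusted p below 0.05 the count was 1 of 5 in each, and the gene was TIP2-2. That threshold was reached by 14.1% of all tested features under ethanol and 9.18% under PEP1. Its means were 568 ± 82.6 CPM in the RNAi line and 382 ± 98.6 CPM in the wild type under ethanol, and 727 ± 67.6 CPM in the RNAi line and 494 ± 72.1 CPM in the wild type under PEP1 (SD, n = 3 each). The log2 difference was 0.57 ± 0.21 (SE, 95% interval 0.11 to 1.03; edgeR adjusted p = 0.222) under ethanol and 0.56 ± 0.21 (SE, 95% interval 0.10 to 1.02; edgeR adjusted p = 0.351) under PEP1. Among all tested features, 9.05% under ethanol and 8.37% under PEP1 had every RNAi library above every wild type library, as TIP2-2 did, and 7.64% under PEP1 had every RNAi library below.

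Under ethanol, the remaining tested TIP genes overlapped between the genotypes. The log2 difference was -0.23 (95% interval -0.70 to 0.24) for TIP1-1, -0.22 (95% interval -0.62 to 0.17) for TIP1-2, 0.16 (95% interval -0.36 to 0.67) for TIP2-1 and -0.00 (95% interval -0.30 to 0.30) for TIP4-1. Under PEP1 it was 0.29 (95% interval -0.18 to 0.76) for TIP1-1, 0.19 (95% interval -0.21 to 0.59) for TIP1-2, 0.01 (95% interval -0.51 to 0.52) for TIP2-1 and -0.25 (95% interval -0.54 to 0.05) for TIP4-1. The genotypes did not overlap there for TIP1-1 and TIP1-2, which were higher in the RNAi line, nor for TIP4-1, which was lower, while none of these differences passed. For TIP1-2 the separation was as narrow as 1361 CPM in the lowest RNAi library and 1354 CPM in the highest wild type library, and the groups overlapped when counts were scaled by library totals.

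Whether the PEP1 response itself depended on the genotype was tested as the interaction, the RNAi change minus the wild type change. No TIP gene passed, at a background of 0.00391% of all tested features called, and 0 of 5 had an unadjusted p below 0.05, which 5.28% of all tested features had. DESeq2 and limma-voom called 0 of 5 as well. The difference was 0.52 (95% interval -0.15 to 1.19) for TIP1-1, 0.41 (95% interval -0.15 to 0.98) for TIP1-2, -0.15 (95% interval -0.88 to 0.58) for TIP2-1, -0.01 (95% interval -0.66 to 0.63) for TIP2-2 and -0.24 (95% interval -0.66 to 0.18) for TIP4-1, all on the log2 scale. The edgeR adjusted p was 0.959 or higher for each. These intervals are wide: for TIP1-2 they reach from a slightly smaller to a much larger change in the RNAi line.

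**Figure D2:**
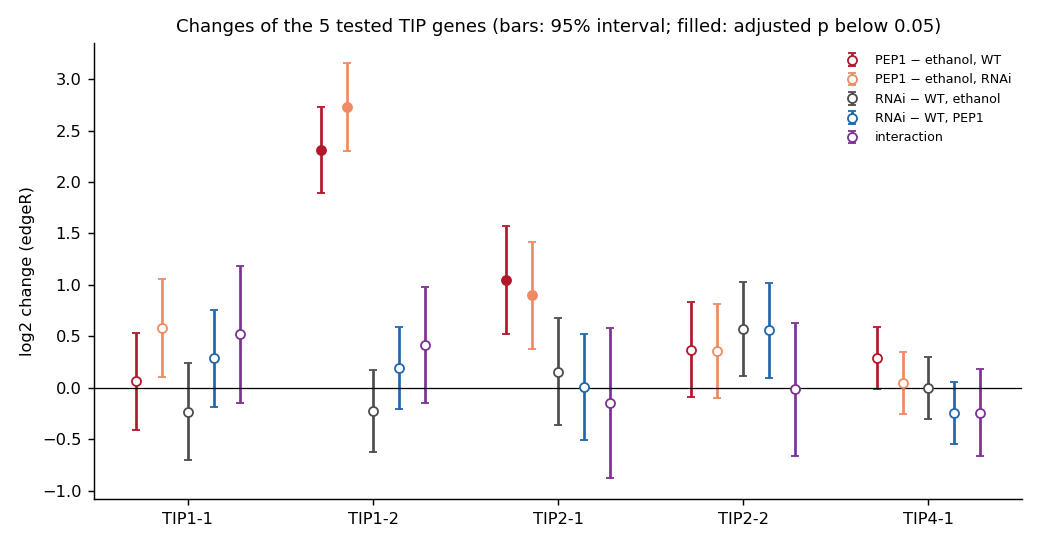
Log2 changes of the 5 tested TIP genes in edgeR, with 95% intervals as bars. The y axis is the log2 change for PEP1 minus ethanol in each genotype, RNAi minus wild type in each treatment, and their interaction, and filled points passed at an adjusted p below 0.05. Filled points are TIP1-2 at 2.31 and 2.73 and TIP2-1 at 1.05 and 0.90.

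In order of mean level, both PEP1 groups came before both ethanol groups in TIP1-1, TIP1-2, TIP2-1 and TIP4-1, and the difference passed in TIP1-2 and TIP2-1. TIP1-2 ran from RNAi PEP1 (1502 CPM) and wild type PEP1 (1316 CPM) to wild type ethanol (265 CPM) and RNAi ethanol (226 CPM), and neighbours within a treatment did not pass the test. TIP2-1 had nearly equal means in the PEP1 groups, 958 CPM in RNAi and 952 CPM in wild type roots. TIP2-2 was ordered by genotype, although no difference passed, with RNAi PEP1 (727 CPM) and RNAi ethanol (568 CPM) before wild type PEP1 (494 CPM) and wild type ethanol (382 CPM). TIP1-1 ran from RNAi PEP1 over wild type PEP1 and wild type ethanol to RNAi ethanol, and TIP4-1 from wild type PEP1 over RNAi PEP1 and wild type ethanol to RNAi ethanol, and no comparison of these groups passed.

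The make-up of the TIP counts differed between PEP1 and ethanol libraries, which is described here without a test. The 7 TIP genes together took 0.474%, 0.514% and 0.521% of all counts in wild type PEP1 libraries, against 0.376%, 0.251% and 0.327% in wild type ethanol libraries. They took 0.616%, 0.498% and 0.616% in RNAi PEP1 libraries, against 0.281%, 0.301% and 0.354% in RNAi ethanol libraries. The PEP1 libraries were above the ethanol libraries in both genotypes without overlap. TIP1-2 made up 26.7% ± 3.27 of the TIP counts with PEP1 and 8.34% ± 0.716 with ethanol in the wild type, and 25.6% ± 0.818 with PEP1 and 7.31% ± 1.38 with ethanol in the RNAi line (SD, n = 3 each). TIP1-1 made up a smaller part with PEP1, 43.4% ± 0.366 against 63.9% ± 2.997 with ethanol in the wild type and 45.1% ± 3.11 against 56.6% ± 1.25 with ethanol in the RNAi line (SD, n = 3 each). For every 100 counts of TIP1-1 there were 61.5 ± 7.81 counts of TIP1-2 with PEP1 and 13.1 ± 1.74 with ethanol in the wild type, and 57.0 ± 4.69 with PEP1 and 13.0 ± 2.75 with ethanol in the RNAi line (SD, n = 3 each). These are shares of reads, which depend on transcript length, and a share of a whole moves when any other member moves.

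**Figure D3:**
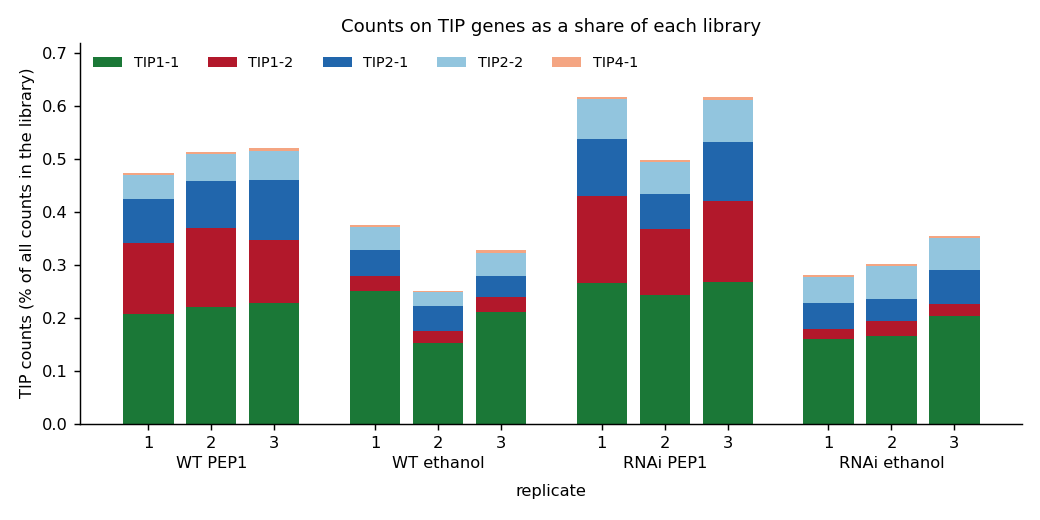
Counts on TIP genes as a percentage of all counts in each library, stacked by gene, with replicates 1 to 3 of each group on the x axis. The PEP1 bars reach 0.474% to 0.616% and the ethanol bars 0.251% to 0.376%, and the TIP1-2 segment is taller in every PEP1 bar. TIP4-2 and TIP4-3 are too small to be drawn.

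Several libraries were high or low in more than 1 TIP gene. Wild type ethanol replicate 1 was the highest of its group in 4 of the 5 tested TIP genes, and wild type ethanol replicate 2 was the lowest in 4. Wild type PEP1 replicate 3 was the highest of its group in 4. RNAi PEP1 replicate 1 was the highest in 4, and RNAi PEP1 replicate 2 was the lowest in 3, namely TIP1-2, TIP2-1 and TIP2-2. In RNAi ethanol, replicate 2 was the highest in 3 and replicate 1 the lowest in 4. RNAi PEP1 replicate 2 had the highest shoot marker sum of all libraries, 744 CPM, and wild type ethanol replicate 2 had the highest of the ethanol libraries, 281 CPM. Without RNAi PEP1 replicate 2 the PEP1 changes in the RNAi line were 2.80 for TIP1-2 and 1.08 for TIP2-1 on the log2 scale, with edgeR adjusted p of 0.000187 and 0.0234. Shoot marker sums overlapped between PEP1 and ethanol in both genotypes. Of the 3 shoot loci, 1 changed upward with PEP1 in the wild type and 3 in the RNAi line, and none passed. Root marker sums were higher with PEP1 in the wild type, at 2115 to 5228 CPM against 1102 to 1888 CPM with ethanol. They were higher in the RNAi line too, at 2850 to 3988 CPM against 2013 to 2631 CPM with ethanol. The 4 root loci did not move as one: the silicon transporter genes Lsi1 (LOC_Os02g51110) and Lsi2 (LOC_Os03g01700) passed as higher with PEP1 in the wild type, and no root locus passed in the RNAi line. LOC_Os02g44310 had lower means with PEP1, at 503 against 719 CPM with ethanol in the wild type and 509 against 905 CPM with ethanol in the RNAi line. The remaining root locus, LOC_Os12g36830, had higher means with PEP1, at 253 against 88.0 CPM with ethanol in the wild type. In the RNAi line its means were 604 CPM with PEP1 and 58.3 CPM with ethanol, and neither change passed. The part of either marker level in the TIP results was not tested.

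Other aquaporins were set beside the TIP genes. Of 11 plasma membrane aquaporin (PIP) loci, 10 were tested, and 5 rose and 1 fell with PEP1 in the wild type, while 8 rose and 1 fell in the RNAi line. PIP2-5 (LOC_Os07g26660) rose to 665 ± 118 CPM with PEP1, against 134 ± 28.8 CPM with ethanol, in the wild type, a log2 change of 2.31 (edgeR adjusted p = 0.000207), equal to that of TIP1-2 to 2 decimals. PIP2-6 (LOC_Os04g16450) fell, by 1.07 in the wild type and by 1.01 in the RNAi line on the log2 scale. Of 6 NIP and SIP loci, a group that includes the silicon channel Lsi1, 1 rose in the wild type and 2 rose in the RNAi line. Of 11 other loci listed for the vacuolar membrane, 2 rose in the wild type, while 3 rose and 1 fell in the RNAi line. None of the loci called in that list passed the check of its symbol, so they are counted without a name or role. The 3 that passed it were SUT2 (LOC_Os12g44380), TPC1 (LOC_Os01g48680) and VIT1 (LOC_Os04g38940), a sugar, a cation and an iron transport gene, and none of these was called in either genotype. The share of all tested features called higher with PEP1 was also larger in the RNAi line (8.68%) than in the wild type (2.54%). The share called lower was 6.68% in the RNAi line and 2.66% in the wild type. These counts describe the lists, and no test compared the lists with each other.

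**Figure D4:**
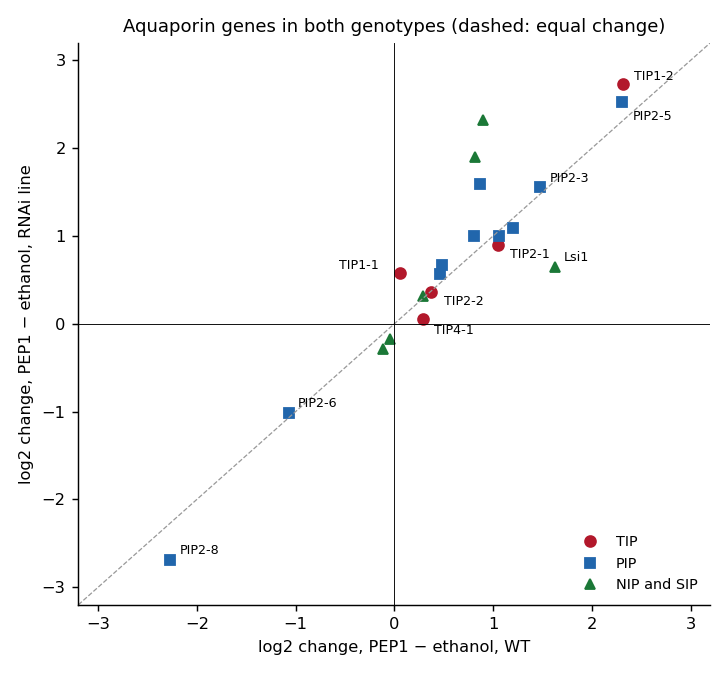
Log2 change with PEP1 minus ethanol in the wild type (x axis) and in the RNAi line (y axis) for tested TIP genes (circles), PIP loci (squares) and NIP and SIP loci (triangles). The dashed line marks equal change, and TIP1-2 lies at 2.31 and 2.73, beside PIP2-5 at 2.31 and 2.52.

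Of the TIP genes, TIP1-1 had the highest mean CPM, and its 2 most similar features over the 12 libraries were looked up among 14701 others with a mean of at least 10 CPM. They were LOC_Os01g66860 (Pearson r = 0.967 of log2 CPM) and LOC_Os03g16150 (r = 0.962). Between TIP genes, r over the 12 libraries was highest for TIP1-2 with TIP2-1 (0.881) and lowest for TIP2-2 with TIP4-1 (0.296). After each library's deviation from its group mean was taken, r was 0.138 for TIP1-2 with TIP2-1 and 0.784 for TIP2-2 with TIP4-1, so the order of these pairs over the 12 libraries rests on differences between the groups. In these deviations r was highest for TIP1-1 with TIP2-2 (0.845) and lowest for TIP2-1 with TIP4-1 (0.019). These values describe 12 libraries in 4 groups that share depth and scaling within each library.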

How the data were processed

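RNA-seq of rice roots gave 12 libraries, 3 in each of 4 groups (wild type and OsPEP1 RNAi line, PEP1 and ethanol), grouped by the labels. Trizol-extracted total RNA (1 µg) was made into Illumina TruSeq libraries, per the labels' protocols. The table used here, which the authors deposited, holds raw counts, as whole numbers without normalization. Its aligner, build, annotation, counting tool and strand setting: not given in the sources used here. Columns were matched to samples by title. Replicates differed by more than sampling noise in every pair (chi-square per degree of freedom 15.0 or more), so all were kept.

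The tests used R 4.3.3 with edgeR 4.0.16 (limma 3.58.1 for voom). A single model of the 4 groups held all 12 libraries, with TMM factors (0.929 to 1.10) and the default filter on low counts. The quasi-likelihood test was used with Benjamini-Hochberg adjustment over 25602 features, with 0.05 as the threshold on the adjusted p. Each SE is the absolute log2 change divided by the square root of F. The common dispersion equalled a biological coefficient of variation of 0.313. The fit was tested on simulated data, with changes set only in the wild type PEP1 group and the spread taken from this fit. Only PEP1 against ethanol in the wild type was tested that way, so it does not bear on the other comparisons. Alternatives were other scaling, other filters, DESeq2 1.42.0, limma-voom, only the groups compared, a replicate block, and leaving out libraries. Limits at 3 counts cover counting error only.

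The table pairs no ID with a name, and 0 of its IDs matched the RefSeq gene table of assembly ASM3414082v1. Symbols were written by hand and used where RefSeq lists them on the chromosome in the locus ID within 0.03 of the relative position. This held for 6 of the 7 TIP genes. TIP4-3 did not match and carries the name it was given with the choice of the genes. Every TIP gene was named, whatever its change. The TIP genes, the lists beside them and the libraries left out together were chosen with earlier results of these data known.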

Additional observations from a re-analysis of the deposited data

How the results depend on the processing

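With PEP1 against ethanol in the wild type, 2 TIP genes passed, and 1 passed when only the libraries of the 2 groups were fitted; leaving out 1 library at a time gave 1 to 2. In the RNAi line 2 passed, and leaving out 1 library gave 1 to 4. The highest counts included TIP1-1 and TIP4-2, and the default filter left out TIP4-2 with all libraries. TIP4-2 entered these fits through the group in which it was high, and it is not counted as a change. Its log2 change was -2.41 without wild type ethanol replicate 1 or 2, opposite in sign to the other genes that passed. No TIP gene passed in any alternative for the genotypes under ethanol or PEP1, or for the interaction. Of 545 alternative values of single genes, 507 kept direction and side of the threshold, 9 lost a call, 3 gained one and 26 changed sign; none of these 26 passed. With library totals only, TIP4-1 under ethanol was 0.005 and TIP2-1 under PEP1 -0.017 between the genotypes. With upper-quartile factors, these were 0.024 and -0.010, and the PEP1 change of TIP4-1 in the RNAi line was -0.034. TIP4-1 under ethanol was 0.001 with limma-voom and 0.002 with the replicate block. Without the 3 libraries that stood apart, the TIP2-2 interaction was 0.001. Leaving out 1 library gave PEP1 changes between -0.107 and 0.263 for TIP1-1 in the wild type and between -0.025 and 0.115 for TIP4-1 in the RNAi line. It gave genotype differences under ethanol between -0.020 and 0.251 for TIP2-1 and between -0.111 and 0.118 for TIP4-1, and under PEP1 between -0.125 and 0.193 for TIP2-1. Interactions lay between -0.282 and 0.043 for TIP2-1 and between -0.153 and 0.184 for TIP2-2. The cause was not tested. Same-numbered libraries correlated between -0.466 and 0.547 in their deviations. Deviations from means of 3 libraries constrain each other, so these values cannot exclude a pairing by number. With the replicate block 2 TIP genes passed in each genotype, and 1063 features in the wild type and 3208 in the RNAi line, against 1330 and 3934 without it. Over all features, the calls with PEP1 in the wild type were 2577 in DESeq2, 535 with only the 2 groups, 2882 without the 3 libraries and 571 to 2942 without 1 library. In the RNAi line they were 6291, 4881, 2339 and 1293 to 5604. Under ethanol 971 features differed between genotypes, 1699 in DESeq2, 596 with only the 2 groups, 639 without the 3 libraries and 611 to 1046 without 1 library. Under PEP1 679 did, 1044 in DESeq2 and 449 to 757 without 1 library, and the interaction called 1, 96 in DESeq2, 2 with the replicate block, 4 without the 3 libraries and 0 to 6 without 1 library.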

Other observations

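Besides the 7 TIP genes, 2 others with a checked symbol had few counts in these roots. TIP3-2 (LOC_Os04g44570), of the subfamily that in Arabidopsis belongs to seeds, had 2, 6 and 1 counts in wild type PEP1, 2, 3 and 4 in wild type ethanol, 11, 7 and 3 in RNAi PEP1, and 9, 12 and 5 in RNAi ethanol. TIP5-1 (LOC_Os04g46490), of the subfamily that in Arabidopsis belongs to pollen, had at most 2 counts in each of the 12 libraries. Neither passed the filter on low counts. LOC_Os10g21790, first listed beside them, failed the check of its symbol by position and is given by ID only. Its mean was 2.36 ± 0.585 CPM with PEP1 and 0.182 ± 0.159 CPM with ethanol in the wild type (SD, n = 3 each; edgeR adjusted p = 0.0437). In the RNAi line it was 2.87 ± 2.40 CPM with PEP1 and 0.0581 ± 0.0619 CPM with ethanol (SD, n = 3 each; edgeR adjusted p = 0.00875). It had 4, 0 and 5 counts in wild type ethanol and 1, 0 and 2 in RNAi ethanol. Because this locus passed the filter through the PEP1 groups, in which it was high, these values are not counted as a change.

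PIP1-3 (LOC_Os02g57720) was the only 1 of the 10 tested PIP loci called between the genotypes. Of all tested features, 3.79% were called under ethanol and 2.65% under PEP1. In the NIP and SIP list, NIP1-1 (LOC_Os02g13870) was lower in the RNAi line under ethanol (log2 difference -1.49; edgeR adjusted p = 0.0402), and none was called under PEP1. PIP1-3 was lower in the RNAi line under ethanol, at 1392 ± 188 CPM against 2673 ± 139 CPM in the wild type (SD, n = 3 each; edgeR adjusted p = 0.0113), and under PEP1, at 2207 ± 207 CPM against 3745 ± 186 CPM in the wild type (SD, n = 3 each; edgeR adjusted p = 0.0466).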
